A study of Homo sapiens with 6 samples.

Results

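The genes described here encode the enzymes that hydroxylate and crosslink collagen: the lysyl oxidases LOX, LOXL1, LOXL2, LOXL3 and LOXL4, the lysyl hydroxylases PLOD1, PLOD2 and PLOD3, and the prolyl 4-hydroxylase alpha subunits P4HA1 and P4HA2. They were taken by gene symbol, and all 10 were present among the 18126 symbols measured. RNA-seq libraries were made on the BGISEQ-500 platform from the human cell line 786-O, which derives from a clear cell carcinoma of the kidney and lacks functional VHL. By the labels, 3 libraries came from cells given siTEAD4, an siRNA against the transcription factor gene TEAD4, and 3 from cells given Control; no time, dose or siRNA sequence is given, and whether a group's 3 libraries stem from separate cultures is not stated. The headers of the value columns instead read "Tead_Inhibitor" for the siTEAD4 libraries and "Vehicle" for Control 2 and Control 3, so every direction below holds for the libraries labelled siTEAD4, whichever agent they received.

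Collagen chains are modified while they are being folded in the endoplasmic reticulum. Prolyl 4-hydroxylase, made of P4HA catalytic subunits and the P4HB subunit, forms the hydroxyprolines that keep the triple helix stable at body temperature. The lysyl hydroxylases modify lysines that later carry sugars and crosslinks, and after secretion the copper-dependent lysyl oxidases turn lysines and hydroxylysines into the aldehydes from which crosslinks form. The hydroxylases need oxygen, iron, 2-oxoglutarate and ascorbate, and several of these genes are known targets of the hypoxia-inducible factors (HIF), which are stabilised in cells without VHL.

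Levels are given in FPKM (fragments scaled to transcript length and to the fragments mapped in a library), which can be set side by side between genes. The transcript named in the labels, TEAD4, was lower. It stood at 8.92, 7.65 and 7.52 FPKM in siTEAD4 1, 2 and 3, against 12.52, 16.99 and 11.28 FPKM in Control 1, 2 and 3. The log2 fold change was -0.68 ± 0.143 (SE, limma adjusted p = 0.00521), and -0.52 without Control 2 (limma adjusted p = 0.00072). The first principal component of the 11411 genes tested separated the groups and held 76.7% of the variance; the second held 17% and set Control 2 apart from Control 1. The libraries of the siTEAD4 group lay closer together, with a root mean square deviation from their group mean of 0.0698 to 0.0829 on the log2 scale, against 0.0980 to 0.209 for the Control libraries. The cell line label can be set against the renal marker PAX8 (70.2 ± 0.975 FPKM in siTEAD4 and 76.6 ± 11.1 FPKM in Control, SD, n = 3 each) and VIM, the vimentin gene, while the hypoxia marker CA9 was low, at 1.38 to 1.56 FPKM in siTEAD4 and 1.55 to 2.25 FPKM in Control. Of the 7 markers listed for the line, the renal genes CDH6 (29.3 ± 1.17 FPKM in siTEAD4 and 155 ± 23.9 FPKM in Control, -2.35) and PAX2 (4.06 ± 0.235 FPKM in siTEAD4 and 7.65 ± 1.56 FPKM in Control, -0.76) were called lower. EPAS1, which encodes HIF-2 alpha (0.32), and VEGFA, a HIF target (0.48), were called higher. Over all tested genes 18.8% were called lower and 26.1% higher, so the higher calls among these markers are close to that share. Of the 6 fibroblast markers, COL1A1, COL3A1, DCN, LUM, PDGFRB and PDGFRA, DCN was listed at 0 in all 6 libraries and the list summed to 1.16 to 1.41 FPKM in siTEAD4 and 3.18 to 3.77 FPKM in Control. A list of 6 endothelial and leukocyte markers summed to 19.7 to 21.8 FPKM in siTEAD4 and 27.0 to 38.4 FPKM in Control, nearly all of it CD68, with CDH5 and VWF at 0.01 FPKM or less in every library. The part of other cells in the results was not tested.

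The enzyme transcripts were lower as a whole, and the 10 genes summed to 366, 361 and 366 FPKM in siTEAD4, against 794, 808 and 860 FPKM in Control. That is 44.4% of the Control mean. LOXL2 and PLOD2 carried most of the sum in both groups, and LOX, LOXL3 and LOXL4 contributed almost nothing. Since whole cultures were measured, fewer producing cells and less RNA per cell cannot be told apart.

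**Figure D1:**
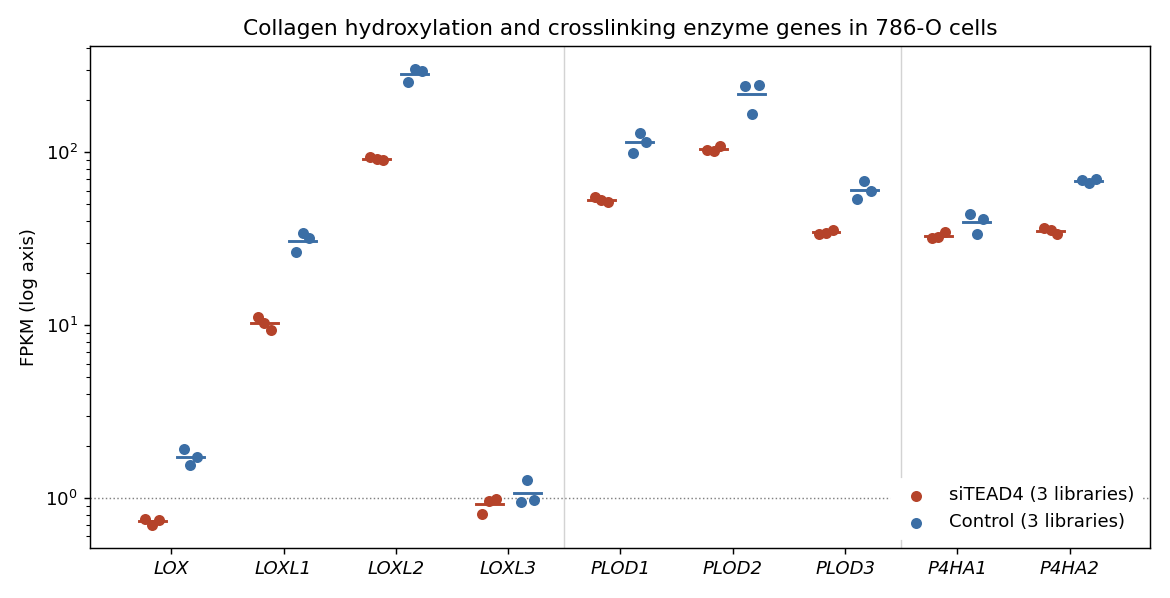
Level of each enzyme gene in FPKM on a log axis, 1 point per library, with a bar at the mean of the 3 libraries of a group; the dotted line marks 1 FPKM, and LOXL4, at 0 to 0.02 FPKM, is not drawn. For LOXL1, LOXL2, PLOD1, PLOD2, PLOD3 and P4HA2 all 3 siTEAD4 libraries lie below all 3 Control libraries, while those of P4HA1 and LOXL3 overlap.

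A gene was tested if 3 or more of the 6 libraries gave it 1 FPKM or above, all with limma on log2(FPKM + 1), which understates the fold change of low genes, and p-values were adjusted over all 11411. Of the 10 enzyme genes, 8 entered the test and 7 had at least 1 FPKM in every library. Of these 7, 6 were called lower in siTEAD4 and none higher at an adjusted p under 0.05 (limma; the unadjusted p of the remaining gene, P4HA1, was 0.0355), where 18.8% of all tested genes were called lower and 26.1% higher. The same 6 had every siTEAD4 library below every Control library, as had 22.6% of all tested genes. The median log2 fold change of the 7 was -1.03, against 0.09 over all tested genes. LOX entered the test only through its Control libraries, so its call is partly fixed by the filter and it is left out of the counts and the median.

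Among the lysyl oxidases the level was concentrated in LOXL2, which encodes a secreted enzyme known to crosslink the type IV collagen of basement membranes. LOXL2 (chromosome 8, 23297189 to 23425328, minus strand, GRCh38) stood at 93.49, 91.20 and 90.97 FPKM in siTEAD4 1, 2 and 3, against 255.49, 304.90 and 294.35 FPKM in Control 1, 2 and 3. The groups did not overlap, and the lowest Control library was above every siTEAD4 library by a wide margin. The siTEAD4 mean was 32.3% of the Control mean, with a log2 fold change of -1.62 ± 0.0871 (SE; 95% interval -1.82 to -1.42; limma adjusted p = 5.12e-06). Only 77 of the 11411 tested genes (0.675%) fell by more. By level, LOXL2 ranked 823rd of the tested genes in siTEAD4 and 212th in Control.

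LOXL1, whose product is known for its part in elastic fibres, changed by nearly the same factor from a lower level. It is on chromosome 15 (73925989 to 73952137, plus strand, GRCh38) and stood at 11.18, 10.31 and 9.42 FPKM in siTEAD4, against 26.40, 34.11 and 32.13 FPKM in Control. Its log2 fold change was -1.49 ± 0.112 (SE; limma adjusted p = 2.48e-05), and 114 tested genes fell by more. The log2 ratio of LOXL2 to LOXL1 was 3.16 ± 0.105 in siTEAD4 and 3.21 ± 0.0587 in Control (SD, n = 3 each), a difference of -0.05 with overlapping groups (two-sided exact permutation p = 0.4). The smallest p that 3 against 3 libraries allow in that test is 0.1.

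LOX, the founding member and the best known crosslinking enzyme of connective tissue, was close to the detection floor in this line. LOX (chromosome 5, 122063195 to 122078360, minus strand, GRCh38) had 0.76, 0.70 and 0.75 FPKM in siTEAD4, against 1.93, 1.56 and 1.72 FPKM in Control. Every siTEAD4 library was below every Control library, at 42.4% of the Control mean (two-sided exact permutation p = 0.1, the smallest possible). LOXL3 (chromosome 2, 74532414 to 74555690, minus strand) had 0.81, 0.96 and 0.99 FPKM in siTEAD4, against 0.95, 1.28 and 0.97 FPKM in Control, with overlapping groups, and did not pass the filter. LOXL4 (chromosome 10, 98247690 to 98268250, minus strand) was listed at 0.02, 0.01 and 0.01 FPKM in siTEAD4, against 0.01, 0 and 0 FPKM in Control, at which no difference can be read. Summed over the 5 genes, the lysyl oxidases stood at 104 ± 2.14 FPKM in siTEAD4 and 319 ± 30.0 FPKM in Control, and LOXL2 made up 88.5 ± 0.546% and 89.4 ± 0.262% of those sums.

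The 3 lysyl hydroxylases were all lower, by nearly the same factor in PLOD1 and PLOD2 and by less in PLOD3. PLOD1, which encodes the enzyme that hydroxylates lysines of the triple helix, is on chromosome 1 (11934205 to 11975538, plus strand, GRCh38) and stood at 54.91, 53.33 and 51.39 FPKM in siTEAD4, against 98.98, 129.65 and 114.39 FPKM in Control. The log2 fold change was -1.08 ± 0.103 (SE; limma adjusted p = 8.23e-05), or 46.5% of the Control mean. PLOD2 encodes the hydroxylase of the telopeptide lysines, whose modification sets the type of crosslink formed. It is on chromosome 3 (146069440 to 146163653, minus strand) and stood at 103.03, 102.49 and 108.86 FPKM in siTEAD4, against 243.54, 167.32 and 245.51 FPKM in Control. The groups did not overlap, although Control 2 was well below the other Control libraries. The log2 fold change of PLOD2 was -1.03 ± 0.142 (SE; limma adjusted p = 0.000574), and -1.22 without Control 2. PLOD3, whose product also transfers sugars to hydroxylysine, is on chromosome 7 (101205977 to 101218420, minus strand) and stood at 33.67, 34.33 and 35.42 FPKM in siTEAD4, against 53.44, 68.13 and 60.02 FPKM in Control. Its log2 fold change was -0.79 ± 0.0968 (SE; limma adjusted p = 0.000329).

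The log2 ratio of PLOD3 to PLOD1 within a library was -0.71, -0.64 and -0.54 in siTEAD4, against -0.89, -0.93 and -0.93 in Control. Every siTEAD4 value was above every Control value, with a difference of 0.29 (two-sided exact permutation p = 0.1, the smallest possible). Between the groups, PLOD3 was thus less reduced than PLOD1. The ratio of PLOD2 to PLOD1 showed no such separation: it was 0.91, 0.94 and 1.08 in siTEAD4, against 1.30, 0.37 and 1.1 in Control (difference 0.05, two-sided exact permutation p = 1). That overlap rested on Control 2: without it the difference was -0.22, with every siTEAD4 library below both Control libraries (exact permutation p = 0.2), and the log2 fold changes were -1.22 for PLOD2 and -0.99 for PLOD1. PLOD2 remained the most abundant of the 3 in every library, at 53.8% to 55.6% of their sum in siTEAD4 and 45.8% to 61.5% in Control.

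The prolyl hydroxylase subunits differed from each other. P4HA2 (chromosome 5, 132191838 to 132295315, minus strand, GRCh38) stood at 36.34, 35.47 and 33.83 FPKM in siTEAD4, against 69.49, 66.77 and 70.01 FPKM in Control. The groups lay far apart and both were tight, and the log2 fold change was -0.95 ± 0.0724 (SE; limma adjusted p = 2.79e-05), or 51.2% of the Control mean. P4HA1 (chromosome 10, 73007217 to 73096974, minus strand) stood at 31.85, 32.21 and 34.41 FPKM in siTEAD4, against 43.91, 33.91 and 40.98 FPKM in Control. Control 2 lay between the siTEAD4 values and the groups overlapped, with a log2 fold change of -0.26 ± 0.103 (SE; 95% interval -0.49 to -0.02; limma adjusted p = 0.0718). P4HA1 passed without Control 2 (-0.36, adjusted p = 0.00117), with each library rescaled to one median (-0.33, 0.0256), with a TMM-like scaling (-0.34, 0.0297) and with length and GC trends removed (-0.37, 0.000661), the last chosen after seeing the data.

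The difference between the subunits was also seen in their shares within a library, which do not depend on scaling. P4HA1 made up 46.7%, 47.6% and 50.4% of the sum of the pair in siTEAD4, against 38.7%, 33.7% and 36.9% in Control. All siTEAD4 libraries were above all Control libraries (means 48.2 ± 1.94% and 36.4 ± 2.55%, SD, n = 3 each; two-sided exact permutation p = 0.1, the smallest possible). The log2 ratio of P4HA2 to P4HA1 was 0.10 ± 0.112 in siTEAD4 and 0.80 ± 0.160 in Control.

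Promoter windows from RefSeq (GRCh38.p14, 250 bases before to 50 bases after each annotated start) were matched by symbol for 9 of the 10 genes, all but LOXL2. Those of LOXL1, the gene with the largest fall among these, of PLOD2, and of the unlike pair P4HA1 and P4HA2 are shown 5′ to 3′ on the strand of the gene, with motif matches on either strand in capitals. The motifs were the TEAD core GGAATG, the hypoxia response cores ACGTG and GCGTG, which share letters and were counted apart, and the NF-kB consensus.
LOXL1 (chr15:73926212-73926511, plus strand): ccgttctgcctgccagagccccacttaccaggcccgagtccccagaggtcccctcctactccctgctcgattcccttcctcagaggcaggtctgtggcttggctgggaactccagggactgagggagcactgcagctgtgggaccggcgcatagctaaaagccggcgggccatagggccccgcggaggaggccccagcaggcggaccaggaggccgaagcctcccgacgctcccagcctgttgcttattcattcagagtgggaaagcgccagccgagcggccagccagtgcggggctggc
PLOD2 (chr3:146161135-146161434, minus strand): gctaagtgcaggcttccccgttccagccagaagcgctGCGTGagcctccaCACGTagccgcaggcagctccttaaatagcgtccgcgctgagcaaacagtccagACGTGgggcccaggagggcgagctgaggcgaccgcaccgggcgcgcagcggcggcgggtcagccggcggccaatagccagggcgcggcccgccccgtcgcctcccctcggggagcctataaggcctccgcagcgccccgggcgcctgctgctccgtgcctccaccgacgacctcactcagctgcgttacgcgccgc
P4HA1 (chr10:73096817-73097116, minus strand): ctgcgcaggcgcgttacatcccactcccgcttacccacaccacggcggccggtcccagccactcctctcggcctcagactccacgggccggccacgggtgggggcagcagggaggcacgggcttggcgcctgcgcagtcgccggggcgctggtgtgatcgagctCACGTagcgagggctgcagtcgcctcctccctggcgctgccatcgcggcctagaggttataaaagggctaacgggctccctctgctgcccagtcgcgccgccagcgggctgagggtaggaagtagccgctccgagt
P4HA2 (chr5:132227042-132227341, minus strand): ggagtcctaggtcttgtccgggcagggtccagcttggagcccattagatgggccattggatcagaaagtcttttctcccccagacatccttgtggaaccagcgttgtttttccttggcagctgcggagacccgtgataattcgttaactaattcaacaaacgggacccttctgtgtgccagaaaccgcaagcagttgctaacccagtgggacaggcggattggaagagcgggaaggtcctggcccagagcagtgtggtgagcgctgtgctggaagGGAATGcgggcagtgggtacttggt

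In these windows P4HA1 held 1 ACGTG match and PLOD2 held 2, and PLOD2 also held 1 GCGTG match. P4HA2 held no hypoxia response core and 1 TEAD core, just after the start, and LOXL1 held none of the 4 motifs. Of the 12 windows of these enzymes, 2 held GGAATG, from 2 genes. The other gene was LOXL3, whose groups overlapped and which did not pass the filter. ACGTG was in 5 of the 12 windows, from 3 genes, GCGTG in 5, from 4 genes, and the NF-kB consensus in 1, from LOXL4. Of all 35116 promoter windows, 14.0% held GGAATG, 21.4% ACGTG, 36.5% GCGTG and 11.3% the NF-kB consensus. Either hypoxia core was in 7 of the 12 windows of these enzymes, from 5 genes, and in 48.4% of all windows. Every LOX window is among the 7, and LOX windows 2 and 3 overlap and hold the same matches, which are thus counted again. A match is a stretch of letters only, and binding was not measured.

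The spread between Control libraries varied with the base composition of the genes. Relative to the mean of Control 1 and 3, Control 2 stood at -0.54 on the log2 scale for PLOD2 (transcript GC content 37.6%), -0.31 for P4HA1 (40.8%), -0.14 for LOX (39.6%) and -0.06 for P4HA2 (49.1%). It was higher for the GC-rich LOXL2 (0.15, 58.2%), LOXL1 (0.22, 67.0%), PLOD3 (0.26, 61.7%) and PLOD1 (0.28, 58.6%). Across 11357 tested genes the Spearman correlation of that deviation with GC content was 0.69 for Control 2 and -0.66 for Control 1, each against the other 2 libraries of its group, and between -0.51 and 0.40 for the siTEAD4 libraries. These genes share libraries and are not replicates, and how far base composition enters each fold change was not tested beyond the fit with length and GC trends removed, in which the same 6 genes and P4HA1 were called lower.

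**Figure D2:**
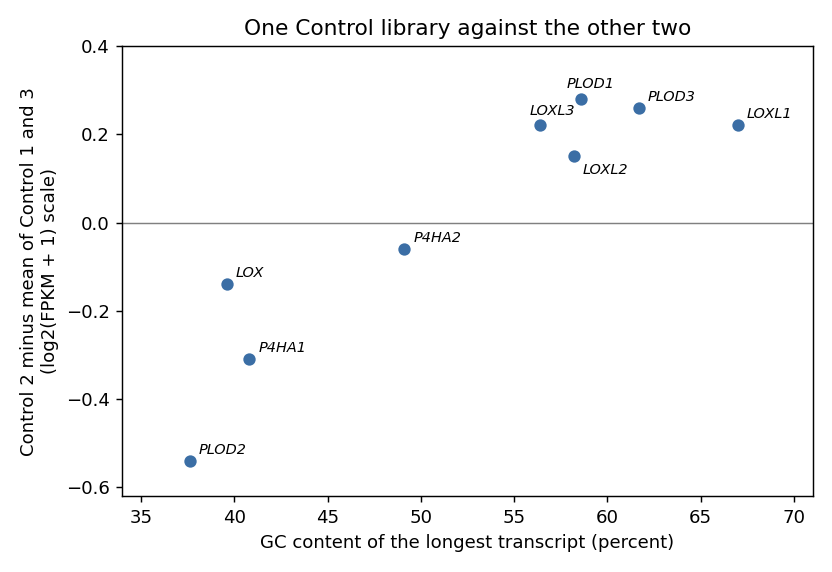
Difference between Control 2 and the mean of Control 1 and 3 on the log2(FPKM + 1) scale, by GC content of the longest transcript, for 9 enzyme genes (LOXL4 is not drawn). The 4 genes with a GC content of 49.1% or less lie below 0 and the other 5 lie above.

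The substrates fell too, and the enzyme families kept different proportions to them. Of 21 collagen chain genes listed, 8 had at least 1 FPKM in every library. All 8 were called lower, against 18.8% of all tested genes. Their median log2 fold change was -1.90, against 0.09 over all tested genes. COL1A1 and COL12A1 entered the test only through their Control libraries and are not counted. COL4A1 (-2.46), COL4A2 (-2.40) and COL8A1 (-2.23) changed most, and these type IV and type VIII chains belong to basement membrane and sheet-like networks. COL7A1, the anchoring fibril collagen gene, changed least, at 92.1 ± 6.21 FPKM in siTEAD4 and 111 ± 4.29 FPKM in Control (-0.27, limma adjusted p = 0.0231), and that call ended without any 1 siTEAD4 library or Control 3 (adjusted p 0.0546 to 0.115) and after removal of length and GC trends (-0.02, 0.732). Of the fibrillar chains listed, only COL1A1 entered the test, at 0.433 ± 0.0306 FPKM in siTEAD4 and 1.21 ± 0.0777 FPKM in Control. COL5A2 stood at 0.507 ± 0.0404 FPKM in siTEAD4 and 0.493 ± 0.0902 FPKM in Control, with overlapping groups. COL1A2, COL3A1, COL5A1, COL5A3 and COL11A1 were under 0.2 FPKM in every library.

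Set against the summed FPKM of the collagen list, the P4HA pair stood at a log2 ratio of -1.98, -1.97 and -1.83 in siTEAD4, against -2.64, -2.83 and -2.76 in Control. It was higher in every siTEAD4 library, by 0.82. The 3 PLOD genes stood at -0.49, -0.48 and -0.31 in siTEAD4, against -0.83, -0.97 and -0.85 in Control, higher by 0.46. Both differences reached the smallest two-sided exact permutation p of 0.1. They were smaller without COL4A1 and COL4A2 in the list (0.71 and 0.35) and larger without COL7A1 (1.22 and 0.85). The lysyl oxidases stood at -1.34, -1.36 and -1.25 in siTEAD4, against -1.31, -1.07 and -1.20 in Control. Their difference was -0.12 with overlapping groups (p = 0.2, exact permutation). It was -0.24 without COL4A1 and COL4A2 and 0.27 without COL7A1 (exact permutation p = 0.1 for each). The sign thus depended on the chains listed, and leaving out COL7A1 was an alternative chosen after seeing the data. COL7A1 was 35.6% of the list's FPKM in siTEAD4 and 15.4% in Control.

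**Figure D3:**
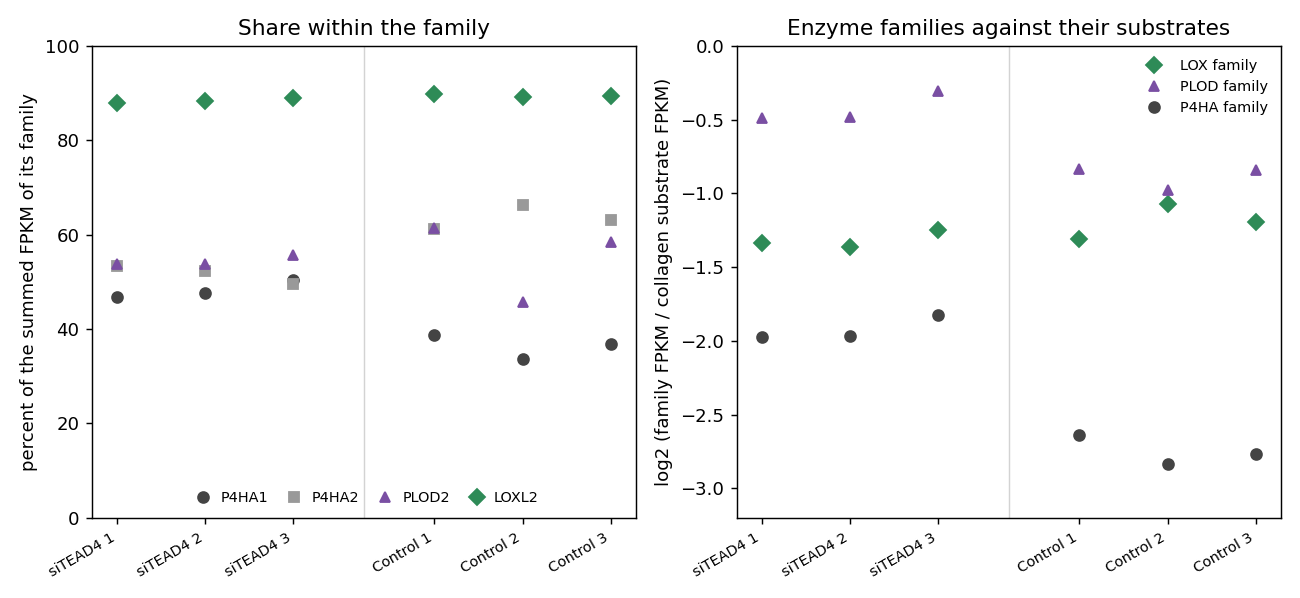
Left, the percent of its own family's summed FPKM for P4HA1, P4HA2, PLOD2 and LOXL2 in each library; right, the log2 ratio of each family's summed FPKM to that of the 21 collagen genes. P4HA1 has the larger share in all siTEAD4 libraries (46.7% to 50.4%, against 33.7% to 38.7% in Control), and the P4HA and PLOD points are higher in siTEAD4 while the LOX points overlap.

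The other genes that fold and modify collagen in the endoplasmic reticulum were also mostly lower. Of 15 listed, 13 were tested, 11 were called lower and none higher, against 18.8% and 26.1% of all tested genes, with a median log2 fold change of -0.55. P3H2, a prolyl 3-hydroxylase gene, stood at 23.8 ± 0.631 FPKM in siTEAD4 and 66.0 ± 2.66 FPKM in Control (-1.43). P3H1 (-0.82), a gene of the same family, and SERPINH1 (-0.80), the collagen chaperone gene, were also lower. P4HB, the partner subunit of P4HA1 and P4HA2, stood at 433 ± 24.4 FPKM in siTEAD4 and 633 ± 57.5 FPKM in Control (-0.54, limma adjusted p = 0.00215). The 2 that did not pass were TMEM38B (0.18) and PPIB (0.23, adjusted p = 0.229), and PPIB passed as higher without Control 2 (0.39, 0.0023) and with length and GC trends removed (0.23, 0.00312). P4HA3, the third alpha subunit gene, had 0.18 to 0.25 FPKM in siTEAD4 and 0.41 to 0.42 FPKM in Control and was not tested.

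Genes of procollagen export and processing were mixed. Of 14 listed, 11 had at least 1 FPKM in every library. Of these, 5 were called lower and 3 higher, with a median of -0.29. Among all tested genes 18.8% were called lower and 26.1% higher, and the higher count is close to that share. TLL2 was under 1 FPKM in some siTEAD4 libraries and is not counted. ADAMTS3, a procollagen N-proteinase gene (-1.37), and BMP1, whose protease trims procollagen and activates LOX (-1.11), were lower. The 3 that rose were SEC24D and SEC23A, which encode subunits of the COPII coat that carries cargo out of the endoplasmic reticulum, and KLHL12, an adaptor of a ubiquitin ligase that acts on that coat. SEC24D was at 79.7 ± 3.72 FPKM in siTEAD4 and 41.7 ± 4.41 FPKM in Control (0.92, limma adjusted p = 0.000117), SEC23A changed by 0.63 (0.0124) and KLHL12 by 0.33 (0.0212). The call of KLHL12 ended without any 1 siTEAD4 library or Control 3 (0.0676 to 0.0868) and with TMM-like scaling or quantile normalization (0.0662 and 0.0516).

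Partners of the lysyl oxidases and their copper supply were also mixed. Of 8 listed, 4 had at least 1 FPKM in every library, and of these 2 were called lower and 1 higher. Over all tested genes 18.8% were called lower and 26.1% higher, and the higher count is close to that share. ATP7A was under 1 FPKM in some siTEAD4 libraries and is not counted, and POSTN, FBLN5 and ELN were under 0.2 FPKM in every library. FN1, the fibronectin gene, stood at 253 ± 1.1 FPKM in siTEAD4 and 1829 ± 398 FPKM in Control (-2.82), and EFEMP2, which encodes a fibulin that brings LOX to elastin, fell by less (-0.60). SLC31A1, the gene of the copper importer, rose (0.52, limma adjusted p = 0.00191). ATOX1, a copper chaperone gene, was at 0.38 (adjusted p = 0.0553) and passed with the replicate block (0.0141), with quantile normalization (0.031) and without Control 2 (0.00253).

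Other targets of HIF were mixed. Of 20 HIF targets listed, none of them an enzyme described above, 19 were tested, 9 were called higher and 2 lower, with a median of 0.20; over all tested genes calls were also more often higher (26.1%) than lower (18.8%), with a median of 0.09. NDRG1, a stress-response gene, stood at 412 ± 3.62 FPKM in siTEAD4 and 163 ± 3.23 FPKM in Control (1.33, limma adjusted p = 5.12e-06), and the cyclin gene CCND1 was also higher (0.57). The 2 that fell were the glucose transporter gene SLC2A1 (-0.60) and the carbonic anhydrase gene CA12 (-0.49). The count of higher genes was 5 without any 1 siTEAD4 library and 6 after either rescaling or without Control 3, and the count of lower genes was 4 with TMM-like scaling or with length and GC trends removed.

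**Figure D4:**
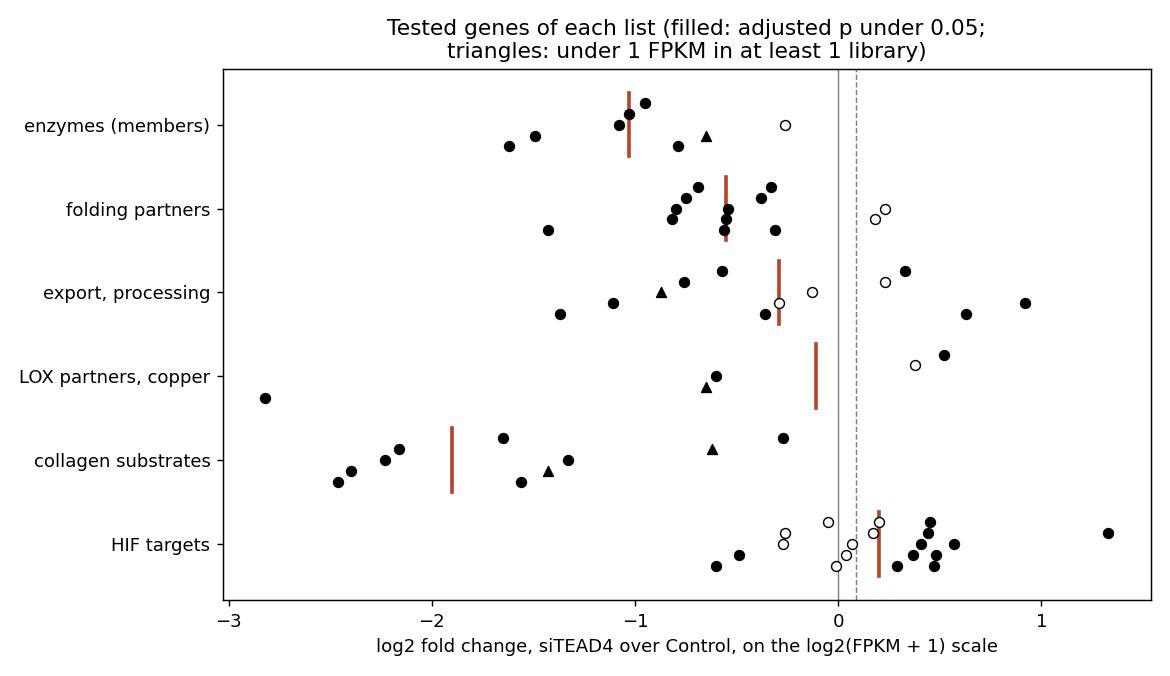
Log2 fold change, siTEAD4 over Control, of each tested gene of the 10 enzymes and of 5 related lists; filled points have an adjusted p under 0.05, triangles are genes under 1 FPKM in at least 1 library, red bars are list medians without the triangles and the dashed line is the median of all tested genes (0.09). The enzymes (median -1.03) lie between the collagen substrates (-1.90) and the folding partners (-0.55), and the HIF targets lie mostly to the right of 0.

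LOXL2 had the largest change of the 10, and the tested genes whose profiles over the 6 libraries lay nearest to it were CX3CL1, OLFML2B, AGRN and CSF1. Nearness was the root mean square distance between mean-centred log2(FPKM + 1) values, 0.0505 to 0.0612 for these 4. LOXL1 was at 0.0889, with 18 tested genes nearer, and PLOD1 was at 0.272, with 207 nearer. P4HA1 was the farthest of the tested enzymes, at 0.705, with 2549 genes nearer. With 2 groups of 3 libraries, such a distance mostly reflects the size of the difference between the groups.

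Strand was not stated for the counting, and 8 of the 10 enzyme genes share exon sequence with another annotated gene. Among partners measured here, SRFBP1, which overlaps LOX on the opposite strand, stood at 9.07 ± 0.190 FPKM in siTEAD4 and 6.09 ± 0.990 FPKM in Control (0.52, limma adjusted p = 0.00624). ZNHIT1, which overlaps PLOD3 on the opposite strand, stood at 132 ± 3.35 FPKM in siTEAD4 and 106 ± 20.6 FPKM in Control (0.33, adjusted p = 0.0639). How reads were split between the overlapping genes was not tested.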

How the data were processed

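Per the file headers, the authors deposited FPKM, in 1 table per library with 18126 gene symbols and values of 2 decimals; the header of Control 1 gives no unit, and its values were treated as FPKM since they share the symbols, rounding and range of the other tables. The submitters' processing notes list GRCh38 as the build, while the aligner, counter and annotation used are not given in the sources used. FPKM keeps no depth: of 494 ratios among low values of 168 short genes, 20.0% lay within 0.1 of a whole multiple, against 20% under an even spread, so no read counts could be recovered, depth is unknown and no counting interval is given. No library was a copy of another (at most 0.684% equal values).

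Groups came from the titles. The 11411 genes that reached 1 FPKM in 3 or more libraries were fitted as log2(FPKM + 1) with limma 3.58.1 in R 4.3.3 (lmFit, eBayes with trend, group as the only term) and called at a Benjamini-Hochberg adjusted p under 0.05. Because labels name no separate cultures, the p-values speak only to library-to-library spread, possibly technical. Within-library shares and ratios used two-sided exact permutation tests. The fit was tested on simulated data. The 10 genes and the lists were chosen with earlier results of these data known. Genes named were the 10 enzymes, TEAD4, up to 3 called genes with the largest change per list among those reaching 5 FPKM in a group mean, called genes that moved against their list, and the 5 profiles nearest to LOXL2, of which 1 is not reported here; P4HB, P4HA3, PPIB, TMEM38B, ATOX1, COL7A1 and others at low levels were named after their values were seen. Positions, lengths and GC content are from GENCODE release 29 (GRCh38; 17879 symbols matched), and overlaps from its exons. Promoter windows are from RefSeq.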

Additional observations from a re-analysis of the deposited data

How the results depend on the processing

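LOXL1, LOXL2, PLOD1, PLOD2, PLOD3 and P4HA2 kept direction and call under all 18 alternatives, and no enzyme was called higher in any; LOX, whose call is tied to the filter, is not counted. P4HA1 was below 0 in all 18, at -0.37 to -0.18 (adjusted p from 0.000661 to 0.199), and passed in 4. TEAD4 also kept its call. Genes called higher numbered 2982, against 1601 at a threshold of 0.01, and 1786 to 4025 when 1 library was left out; genes called lower were 1539 to 2522 then. Lower genes made up 41.8% of calls, 53.1% after rescaling to one median and 54.9% with TMM-like scaling. The LOX family to substrate difference turned from -0.12 to 0.27 without COL7A1; with type IV chains left out instead it was -0.24. Differences in family share that were near 0 changed sign when 1 library was left out: they ranged from -0.0623 to 0.587 percentage points for LOXL1, from -3.72 to 1.54 for PLOD1 and from -5.55 to 2.29 for PLOD2. The log2 ratio of PLOD2 to PLOD1 likewise ranged from -0.22 to 0.24. The values did not show that the replicate numbers pair the libraries (correlations of same-numbered deviations -0.16, 0.27 and 0.09). Only siTEAD4 2 correlated best with its own number. This check cannot exclude pairing, since it rests on 3 libraries per group whose deviations also varied with GC content. With the replicate block, 2165 genes were lower and 3015 higher, and no enzyme's call changed. Without a Control library LOX was below the filter. Depth is unknown, so the precision of low genes (LOX, LOXL3, LOXL4) cannot be given.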
